A study of Mus musculus with 2 samples.

Results

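Growth hormone and the genes that set its release were followed through 10 transcripts of the somatotroph, the growth hormone cell of the anterior pituitary. They were taken by name: Gh, Ghrhr, Ghsr, Pou1f1, Neurod4, Dlk1, Pappa2, Rxrg, Sstr2 and Sstr5, and all 10 were found, once each, among 31784 gene rows. The study compared pituitaries of Brdt-/- mice with those of wild-type mice on 2 Agilent 2-colour microarrays. The mutants carried a knockout-first allele (tm1a), in which a lacZ trap and a neo cassette sit in the fourth intron of Brdt, a gene of the bromodomain BET family best known from male germ cells. There were 2 pools of Brdt-/- mice and 2 pools of wild-type mice, each of 3 animals aged 8 weeks on a C57BL/6 background. The wild-type channels were labelled male and no sex was given for the Brdt-/- channels. Each array set 1 Brdt-/- pool against 1 wild-type pool. The Brdt-/- pool carried Cy5 on array 1 and Cy3 on array 2.

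Growth hormone release is driven by GHRH from the hypothalamus, whose receptor on the somatotroph raises cyclic AMP, and by ghrelin, whose receptor GHSR acts mainly through calcium. Somatostatin opposes both through receptors coupled to inhibitory G proteins. The POU factor POU1F1 activates Gh and is needed for somatotrophs, lactotrophs and thyrotrophs to form. Growth hormone in turn raises insulin-like growth factor 1, which feeds back on the pituitary.

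All values are log2 ratios of Brdt-/- over wild type, array 1 before array 2, with SDs over the 2 arrays. They compare RNA and give no level per gene, so how strongly a gene is used in either genotype is unknown, and the tissue label could not be checked against marker levels. In whole-gland RNA, fewer cells of a type and less RNA per cell cannot be told apart. The direction is assumed rather than settled. The foreign E1A RNAs that Agilent supplies as spike-ins filled 10 rows, and each of the 10 pointed the same way on array 1 and array 2 as deposited. If each mixture was added with its own dye, which no source used here states, both columns run in one dye order. That order was taken to be Cy5 over Cy3, which no source used here states either, so the signs of array 2 were exchanged. Were it Cy3 over Cy5, all signs of this first reading would be opposite. The other reading leaves array 2 as deposited and takes both columns as Brdt-/- over wild type. No label states that order, and were it wild type over Brdt-/-, all signs of the other reading would be opposite. Values of the other reading stand beside those of the first for the 10 genes, for the lists as counts, and for some genes that lie far out. The targeted gene Brdt lay at -0.30 and -0.43 with array 2 turned, a mean of -0.36 ± 0.10 (SD, n = 2), and at a mean of 0.067 in the other reading. Across gene rows, which are not independent replicates, the ratios of array 1 and of turned array 2 had a Pearson's r of -0.26. With array 2 as deposited it was 0.26, so the arrays resembled each other more in the other reading. No gene passed limma's adjusted threshold of 0.05, which is 0 of 31784 (0%), while 703 genes (2.21%) had an unadjusted p under 0.05 and the ordinary one-sample statistic called 2, both outside these genes.

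With array 2 turned, the ghrelin receptor transcript stood lowest among the 10 genes, 1.70-fold lower in Brdt-/- than in wild-type pituitary. The hormone transcript itself then had opposite signs on the arrays. Of the 10, 3 were higher on both arrays (Ghrhr, Neurod4 and Sstr2) and 2 were lower on both (Ghsr and Pappa2). Over all gene rows, 21.6% were higher on both and 19.5% lower on both. The median of the 10 means was -0.069, against 0.0025 over all gene rows. Limma's adjusted p was 0.999995 for each of the 10 genes, and Ghsr was the only gene of the 10 with an unadjusted p under 0.05.

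**Figure D1:**
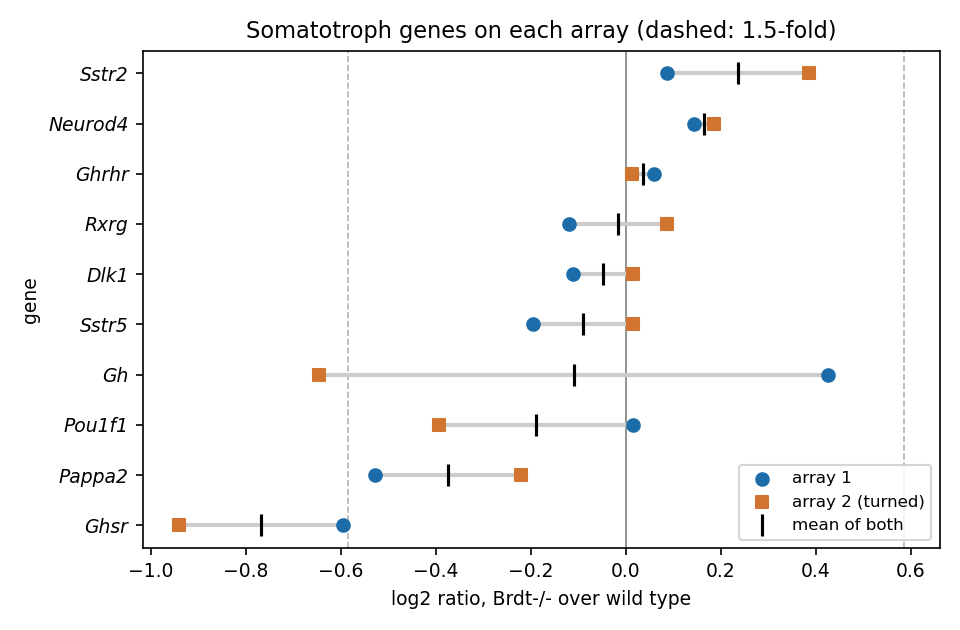
Log2 ratio of Brdt-/- over wild type for each of the 10 somatotroph genes (horizontal axis), ordered by mean, with a circle for array 1, a square for array 2 after turning and a black tick for the mean of both. Ghsr lies beyond the dashed 1.5-fold line on both arrays, and the points of Gh lie on opposite sides of 0, at 0.43 and -0.65.

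Gh, which encodes growth hormone, was at 0.43 on array 1 and -0.65 on array 2. The first value was above 88.7% of all gene rows on its array and the second above only 4.83%, so the arrays placed the hormone near opposite ends. The mean of -0.11 ± 0.76 (SD, n = 2) had a limma 95% interval of -1.11 to 0.89, the widest of the 10 genes. In the other reading Gh was at 0.43 and 0.65, positive on both arrays if the columns stand for Brdt-/- over wild type. The mean was 0.54, with an unadjusted p of 0.0274 by limma (adjusted p = 0.465). In that reading 10.2% of gene rows had an unadjusted p under 0.05. The prolactin gene Prl, the hormone of the lactotroph, which shares the POU1F1 lineage, was split in the same way, at 0.63 and -0.58. Its mean was 0.60 with array 2 as deposited. Of the 8 lactotroph markers, Prl among them, 4 were split like this, positive on array 1 and negative on turned array 2. So were 23.3% of all gene rows, and a part of the lineage in the split was not tested. The genes closest to Gh in their pair of ratios, among 210 other genes of the lists used here, were S100b at 0.40 and -0.66, Neurod2 at 0.45 and -0.70 and Mylpf at 0.52 and -0.73. Their distances from Gh were 0.032, 0.065 and 0.12 over the 2 arrays. For S100b, a calcium-binding protein of folliculostellate cells, 19 rows of the whole array, S100b included, lay as near to Gh. Of the 8 stem and folliculostellate markers, S100b among them, 5 were higher on both arrays and 0 lower, with medians of 0.42 and 0.083. All gene rows were 21.6% higher and 19.5% lower. With array 2 as deposited, 3 markers were higher and 0 lower, against 23.3% and 35.4% of all gene rows. The part of these markers in the Gh values was not tested.

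Ghsr encodes the receptor of ghrelin, the growth hormone secretagogue receptor. It was at -0.60 on array 1 and -0.94 on array 2, lower in Brdt-/- pituitary in both pairs of pools. The first value exceeded 6.46% of gene rows on its array and the second 2.19%. The mean was -0.77 ± 0.24 (SD, n = 2), with a limma 95% interval of -1.31 to -0.23 and an unadjusted p of 0.0187. This did not survive adjustment over all genes (adjusted p = 0.999995). Past 1.5-fold lower on both arrays were 144 of 31784 gene rows (0.453%), and Ghsr was the only one of the 10 genes among them. Array 1 held that call narrowly, since centring the arrays on their medians placed Ghsr at -0.57 there, inside the log2 bound of 0.58. In the other reading its ratios were -0.60 and 0.94, with a mean of 0.17. Among the 210 other genes of the lists, the one nearest to Ghsr in its pair of ratios was Pomc, the corticotrophin precursor, at -0.63 and -0.96. The distance was 0.037, and 2 rows of the whole array, Pomc included, lay as near. With array 2 as deposited, the mean of Pomc was 0.17. Irs2 at -0.45 and -0.54 and Insr at -0.20 and -0.72 came next within the lists. However, 221 and 277 rows of the whole array, these genes included, lay as near to Ghsr. The stretch upstream of Ghsr is shown because this gene had the largest ratio of the 10. It is RefSeq sequence of build GRCm38.p6, plus strand, chr3:27371101-27371350, 250 bases that end just before the annotated start, and it held no match to either motif searched here.
Ghsr: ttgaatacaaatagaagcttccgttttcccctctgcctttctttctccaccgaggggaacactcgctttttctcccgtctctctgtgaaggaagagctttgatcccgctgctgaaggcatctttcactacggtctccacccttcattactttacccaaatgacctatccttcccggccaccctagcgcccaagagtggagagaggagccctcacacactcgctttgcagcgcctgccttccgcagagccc

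Ghrhr encodes the GHRH receptor, whose loss in mice causes dwarfism. It was at 0.059 and 0.013, close to 0 in both pairs of pools, and the mean was 0.036 ± 0.033 (SD, n = 2). Its limma 95% interval ran from -0.42 to 0.49, so a change of up to about that size in either direction lies within the error. Ghsr was below Ghrhr by a log2 difference of -0.65 on array 1 and -0.95 on array 2, as a difference of ratios within each array. With array 2 as deposited, the mean of Ghrhr was 0.023.

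Of the inhibitory side, Sstr2 and Sstr5 encode the somatostatin receptors best known for restraining growth hormone release. Sstr2 was at 0.088 and 0.39, higher on both arrays, with a mean of 0.24 ± 0.21 (SD, n = 2) and a limma 95% interval of -0.28 to 0.76. Sstr5 was at -0.20 and 0.016, with a mean of -0.09 ± 0.15, and its signs differed between the arrays. With array 2 turned, Sstr2 lay above Sstr5 by 0.28 and 0.37, a difference that had the same sign in both pairs of pools but was not tested. With array 2 as deposited, Sstr2 was at 0.088 and -0.39 and Sstr5 at -0.20 and -0.016, with means of -0.15 and -0.11.

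The stretch upstream of Sstr2 is shown because it was the only window of these genes with a cyclic AMP response element. The motif TGACGTCA reads the same on both strands. It was found in 1 of the 10 windows that 7 of the 10 genes had in the RefSeq table, against 1.79% of all 32851 windows of the same 300 bases. Gh, Ghrhr and Sstr5 had no window and could not be searched for either motif. The match begins 58 bases before the annotated start and is printed in capitals. The sequence is from build GRCm38.p6, plus strand, chr11:113619077-113619326.
Sstr2: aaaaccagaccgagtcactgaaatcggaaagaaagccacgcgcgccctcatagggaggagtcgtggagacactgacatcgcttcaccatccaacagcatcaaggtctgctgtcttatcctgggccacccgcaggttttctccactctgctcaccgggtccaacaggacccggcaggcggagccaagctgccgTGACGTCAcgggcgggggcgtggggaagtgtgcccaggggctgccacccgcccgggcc

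The other somatostatin receptor genes were read from the list of ligands and further receptors. Sstr1 was at 0.81 and 0.86, a mean of 0.84 ± 0.033 (SD, n = 2), and was past 1.5-fold higher on both arrays, as were 114 gene rows in all (0.359%). Its unadjusted p by limma was 0.00901 and its adjusted p 0.999995. Sstr3 was at -0.14 and -0.083, and Sstr4 at -0.22 and -0.064. So, with array 2 turned, Sstr1 and Sstr2 were higher on both arrays, Sstr3 and Sstr4 lower on both, and Sstr5 mixed. With array 2 as deposited, only Sstr5 had the same sign on both arrays. The means of Sstr1, Sstr3 and Sstr4 were then -0.023, -0.030 and -0.078.

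**Figure D2:**
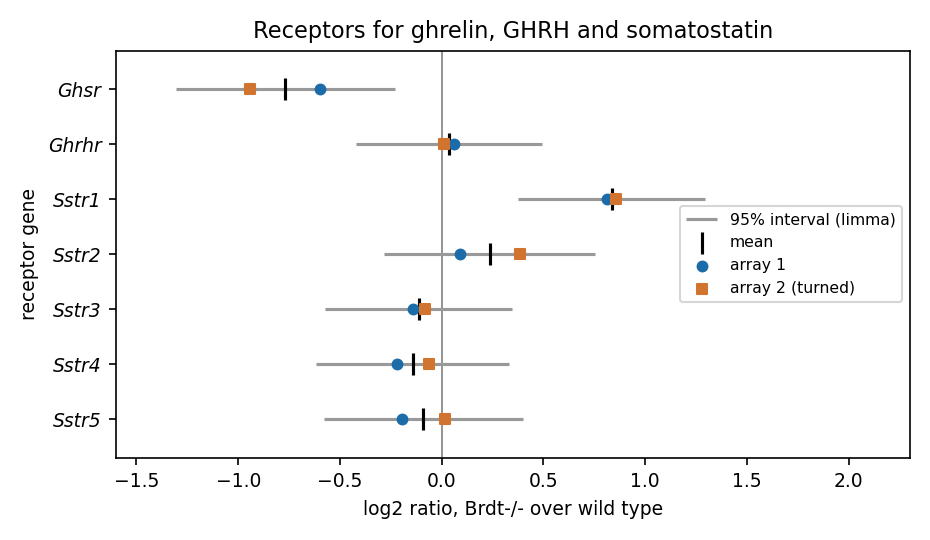
Log2 ratio of Brdt-/- over wild type (horizontal axis) for the receptors of ghrelin (Ghsr), GHRH (Ghrhr) and somatostatin (Sstr1 to Sstr5), with circles for array 1, squares for array 2 after turning, black ticks for means and grey bars for limma's unadjusted 95% intervals. The bars of Ghsr (-1.31 to -0.23) and Sstr1 (0.38 to 1.29) do not include 0, and those of the other 5 receptors do.

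Pou1f1 was at 0.016 and -0.39. Array 2 thus carried almost all of its difference, as the second value exceeded 9.84% of gene rows on its array and the first 58.1%. The mean was -0.19 ± 0.29 (SD, n = 2; limma 95% interval -0.76 to 0.38). Gh lay above Pou1f1 by 0.41 on array 1 and below it by a difference of -0.25 on array 2. In the other reading Pou1f1, like Gh, was positive on both arrays, with a mean of 0.20.

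The stretch upstream of Pou1f1 is shown because POU1F1 is known to act on its own gene. Of the 2 windows of Pou1f1, the 1 shown held 2 matches to a form of its site and the other held none. The letters searched were ATGNATA and, for the other strand, TATNCAT, which do not overlap the cyclic AMP motif here. They were found in 8.84% of all windows and in 2 of the 10 windows of these genes. Gh, which had no window, was not searched. The first Pou1f1 match, in capitals, begins 57 bases before the annotated start, and the second begins 12 bases after it, outside the stretch printed. The other window with a match was that of Pappa2, 205 bases before the start on the opposite strand. The sequence is from RefSeq build GRCm38.p6, plus strand, chr16:65520262-65520511, and a match is a description of letters, not of binding.
Pou1f1: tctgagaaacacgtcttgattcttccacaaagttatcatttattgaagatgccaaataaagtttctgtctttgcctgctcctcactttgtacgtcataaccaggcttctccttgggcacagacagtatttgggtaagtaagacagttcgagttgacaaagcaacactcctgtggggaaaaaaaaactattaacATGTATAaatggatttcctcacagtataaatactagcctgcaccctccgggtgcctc

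Neurod4, a basic helix-loop-helix factor of the somatotroph lineage, was at 0.14 and 0.19. Its mean of 0.16 ± 0.030 (SD, n = 2) had the smallest spread of the 10 genes, with a limma 95% interval of -0.29 to 0.62. Rxrg, which encodes retinoid X receptor gamma, was at -0.12 and 0.086, with a mean of -0.016 ± 0.15, the mean nearest to 0. Neurod4 had a mean of -0.021 with array 2 as deposited, and Rxrg one of -0.10. Rxrg lay in a crowded part of the array, where 336 other rows had both ratios within a distance of 0.02, against 60 at the position with both signs exchanged. Of those 336 rows, 11% were olfactory receptor genes, which made up 3.47% of all rows.

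Dlk1 and Pappa2 encode proteins of the cell surface and outside the cell. Dlk1, a transmembrane relative of the Notch ligands and a paternally expressed imprinted gene, was at -0.11 and 0.014, a mean of -0.048 ± 0.089 (SD, n = 2; limma 95% interval -0.52 to 0.42). Pappa2, a protease that frees insulin-like growth factors from their binding proteins, was at -0.53 and -0.22, lower on both arrays. Its mean was -0.37 ± 0.22, with a limma 95% interval of -0.90 to 0.15 and an unadjusted p of 0.111, after Ghsr the lowest mean of the 10 genes. The means with array 2 as deposited were -0.063 for Dlk1 and -0.15 for Pappa2.

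**Figure D3:**
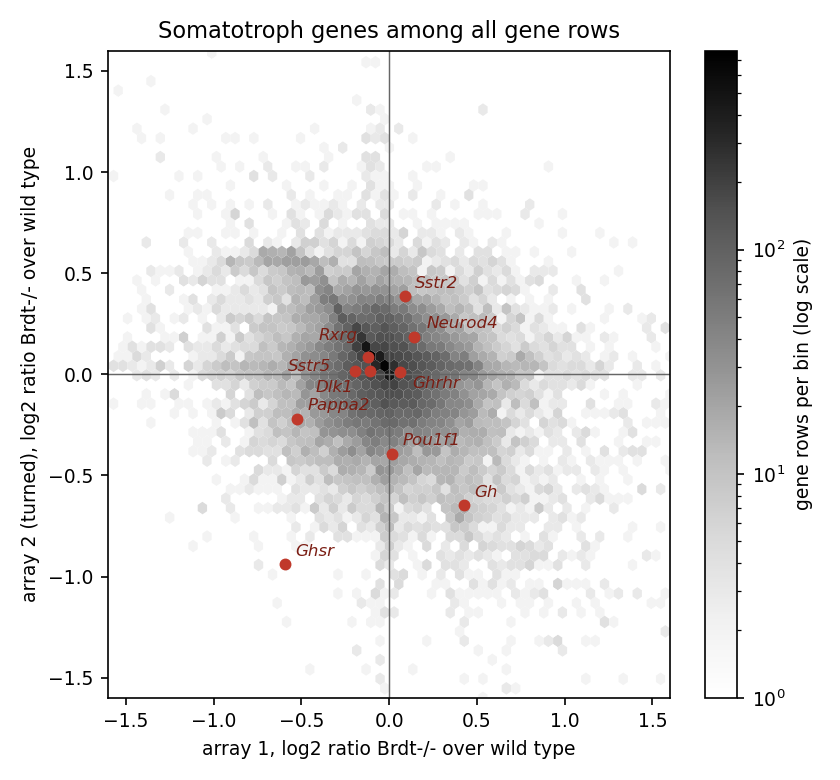
Log2 ratio on array 1 (horizontal axis) against array 2 after turning (vertical axis), both Brdt-/- over wild type, with grey hexagons for the number of gene rows on a log scale and red points for the 10 somatotroph genes. Rows beyond 1.6 in size on either array lie outside the axes. Ghsr lies at the sparse lower left (-0.60 and -0.94), Gh at the lower right (0.43 and -0.65), and Rxrg on the dense band in the upper left quadrant.

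The 10 genes divided evenly between both readings of array 2. By construction, a gene has the same sign on both arrays in 1 reading only. Of the 10, 5 had the same sign on both arrays when array 2 was turned (Ghrhr, Ghsr, Neurod4, Pappa2 and Sstr2), and the other 5 (Gh, Pou1f1, Dlk1, Rxrg and Sstr5) when it was not. Over all gene rows, 41.1% had the same sign with array 2 turned and 58.7% with array 2 as deposited. With array 2 as deposited, 2 of the 10 were higher on both arrays (23.3% of all rows) and 3 were lower on both (35.4%), and 0 were past 1.5-fold in the same direction (3.17% of all rows). The ratios of Ghsr shared a sign in the turned reading and those of Gh in the other.

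**Figure D4:**
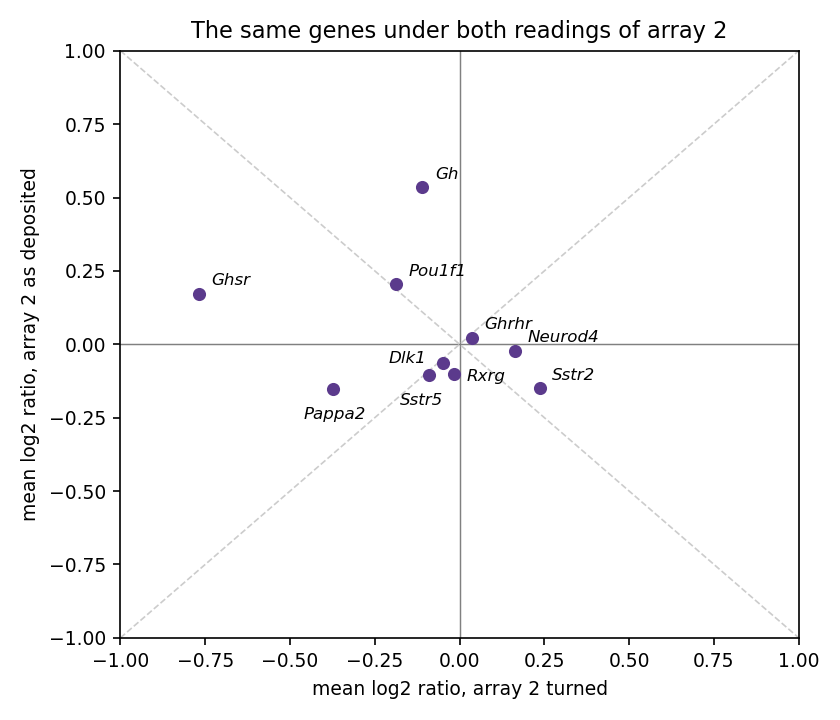
Mean log2 ratio of the 2 arrays with array 2 turned (horizontal axis) against the mean with array 2 as deposited (vertical axis) for the 10 somatotroph genes. Between the dashed diagonals that open left and right lie the 5 genes whose sign agreed on both arrays after turning, with Ghsr at -0.77, and above and below lie the other 5, with Gh at 0.54 on the vertical axis.

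Around these 10 genes, the ligands and further receptors of the pathway showed no common direction. Of 15 measured, 4 were higher on both arrays and 5 lower on both, with a median of means of -0.023. With array 2 as deposited, 3 were higher and 3 lower on both arrays. The shares over all gene rows were 21.6% higher and 19.5% lower when turned, and 23.3% and 35.4% as deposited. Ghrl, the ghrelin gene, was at -0.25 and -0.16, on the same side as its receptor with array 2 turned only. As deposited, the mean of Ghrl was -0.045 and that of Ghsr 0.17. Ghrh and Sst, which are made mainly in the hypothalamus, had opposite signs on the arrays, at 0.45 and -0.19 and at 0.68 and -0.96. Crhr1, the receptor of corticotrophin-releasing hormone, was at 0.41 and 0.31, and Adcyap1r1, the PACAP receptor, at 0.54 and 0.083. For the whole array, the median of means was 0.0025.

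Of 26 genes for signalling behind these receptors, 5 were higher on both arrays, 4 lower on both, and 17 had opposite signs, with a median of means of -3.6e-04. As deposited, array 2 gave 11 higher and 6 lower on both. All gene rows were 21.6% higher and 19.5% lower when turned, and 23.3% and 35.4% as deposited. Crem, a cyclic AMP-induced regulator of cyclic AMP transcription, was lowest at -1.07 and -0.52, a mean of -0.79 ± 0.38 (SD, n = 2; unadjusted p = 0.0280 by limma, adjusted p = 0.999995), and had a mean of -0.27 with array 2 as deposited. Kcnj3 and Kcnj6 encode inward rectifier potassium channels that G proteins open, a route by which somatostatin quiets pituitary cells. Kcnj3 was at -0.41 and -0.41, and Kcnj6 at -0.48 and -0.14, with unadjusted p of 0.0657 and 0.170 by limma. With array 2 as deposited, their means were 0.0014 and -0.17. Gnas, the stimulatory G protein subunit behind the GHRH receptor, was at 0.18 and -0.14.

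Genes of growth hormone and insulin-like growth factor signalling were 26 in number, of which 6 were higher and 6 lower on both arrays, with a median of means of 0.039. The deposited signs of array 2 gave 10 higher and 4 lower. Shares over all gene rows were 21.6% higher and 19.5% lower when turned, and 23.3% and 35.4% as deposited. Igfbp2, a binding protein, was at 0.16 and 2.17, so array 2 carried its mean of 1.17 ± 1.42 (SD, n = 2), and Igfbp1 was at 1.27 and 0.10, carried by array 1. The mean of Igfbp2 was -1.002 with array 2 as deposited, that of Igfbp1 0.58 and that of Irs2 0.045. Irs2, a substrate of the insulin and IGF1 receptors, was at -0.45 and -0.54, with an unadjusted p of 0.0411 by limma (adjusted p = 0.999995). Igf1 was at 0.33 and -0.09, and Ghr, the growth hormone receptor, at 0.13 and -0.016. Pappa, the relative of Pappa2, was at -0.15 and -0.13.

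Of 24 pituitary lineage factors, 10 were higher and 3 lower on both arrays, with a median of means of 0.054. With array 2 as deposited, 10 were higher and 1 lower on both. All gene rows were 21.6% higher and 19.5% lower when turned, and 23.3% and 35.4% as deposited. Tbx19 of corticotrophs was at 0.39 and 0.30, and Sox2 of stem cells at 0.45 and 0.13. Of 14 nuclear receptor genes, 4 were higher and 3 lower on both arrays, in either reading. The mineralocorticoid receptor gene Nr3c2 was at -0.61 and -0.37, the oestrogen receptor gene Esr1 at -0.058 and -0.55, and the retinoic acid receptor gene Rara, whose protein pairs with retinoid X receptors, at 0.43 and 0.03.

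In the list of the Dlk1 locus and the Notch pathway, 16 of 17 genes were measured. Of these, 3 were higher and 5 lower on both arrays, against 21.6% and 19.5% of all gene rows. With array 2 as deposited, 5 were higher and 3 lower, against 23.3% and 35.4%. Rtl1, an imprinted neighbour of Dlk1 derived from a retrotransposon, was at -1.01 and -1.23, a mean of -1.12 ± 0.15 (SD, n = 2; unadjusted p = 0.00444 by limma, adjusted p = 0.999995), past 1.5-fold lower on both arrays. That call and its sign depend on turning array 2, since the mean of Rtl1 was 0.11 with array 2 as deposited. Dio3, which encodes a thyroid hormone deiodinase at the same locus, was at -0.32 and -0.45. Meg3, the maternally expressed RNA of the locus, was at -0.11 and 0.20, and Dlk1 itself stayed near 0 as given above. Hes1, a target of Notch, was at 0.44 and 0.40.

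**Figure D5:**
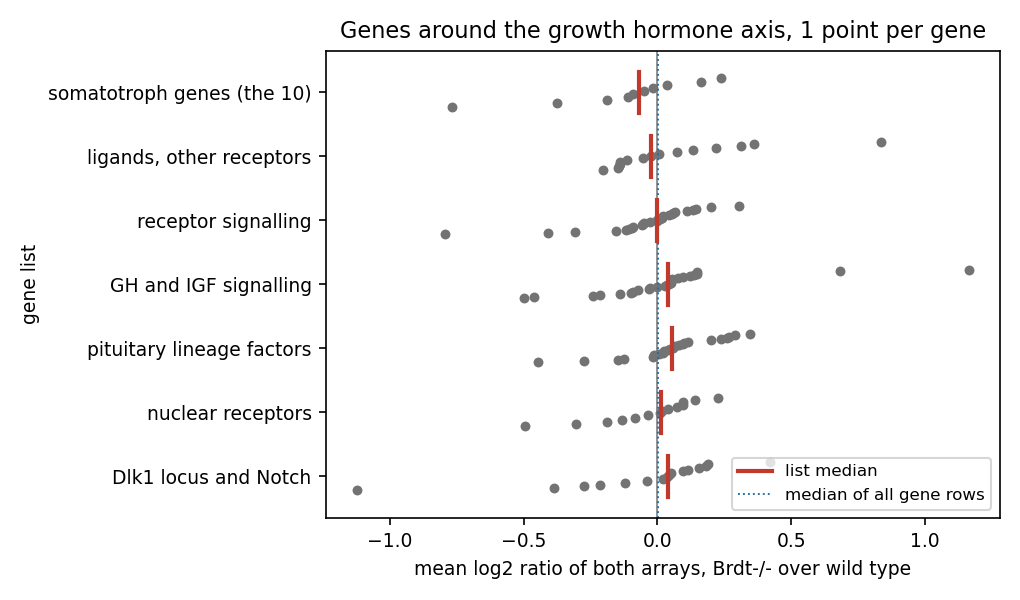
Mean log2 ratio of both arrays, Brdt-/- over wild type (horizontal axis), with 1 grey point per gene, a red bar for the median of each list and a dotted blue line for the median of all gene rows. The medians of the 7 lists drawn lie between -0.069 (the 10 somatotroph genes) and 0.054 (lineage factors), and single genes such as Rtl1 (-1.12) and Igfbp2 (1.17) lie far from them.

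Markers of other cells that a dissected pituitary can hold were read from the same arrays. With array 2 turned, the shares over all gene rows were 21.6% higher on both arrays and 19.5% lower, and the lists are short. Of 8 gonadotroph markers 5 were higher on both arrays and 0 lower, with medians of 0.34 and 0.15. Lactotroph markers split 2 higher and 2 lower of 8, corticotroph and melanotroph markers 2 higher and 3 lower of 8, and thyrotroph markers, which share Cga and Gata2 with the gonadotroph list, 3 higher and 0 lower of 7. The somatotroph marker list, which overlaps the 10 genes, had 3 higher and 1 lower on both arrays of 12, with medians of 0.038 and 0.014. Markers of the posterior lobe had 4 higher and 2 lower of 7, hypothalamic axon markers 4 higher and 1 lower of 7, endothelial markers 1 higher and 4 lower of 7, and muscle markers 2 higher and 1 lower of 7. Immune markers, with S100a8 at 5.54 and 0.45, had 7 higher and 3 lower of 11, and red cell markers, with Hba-a2 at 0.73 and 1.15, had 4 higher and 0 lower of 6. The red cell medians were 0.16 and 1.16 and the immune medians 0.25 and 0.30. These counts depend on the reading of array 2. With array 2 as deposited, 23.3% of all gene rows were higher on both arrays and 35.4% lower. As deposited, red cell markers had 0 higher and 2 lower on both arrays, with a median of means of -0.50 against 0.69 when turned. Immune markers had 0 higher and 1 lower. Gonadotroph markers had 2 higher and 1 lower, with a median of means of 0.018 against 0.26 when turned. Lactotroph markers had 4 higher and 0 lower, corticotroph and melanotroph markers 2 and 1, thyrotroph markers 4 and 0, and somatotroph markers 4 and 4. Posterior lobe markers had 1 higher and 0 lower, axon and endothelial markers 1 and 1 each, and muscle markers 2 and 2. The means of S100a8 and Hba-a2 as deposited were 2.55 and -0.21. The part of these cells in the values of the 10 genes was not tested.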

How the data were processed

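Each deposited value is a score in the form of a linear fold with a sign, never between -1 and 1, and 31840 rows, 1 per gene name, are given for each of 2 arrays. RNA was amplified and labelled with a low-input 2-colour kit, per the labels' protocols. The sources used here do not state the scanner, background correction, normalization, combination of probes or direction. Deposited medians were -0.03 on both arrays, with any centring by the authors unknown. The log2 of each fold's size was taken and given the sign of the fold. After 56 Agilent control rows were left out, 31784 gene rows remained, of which 20794 matched a RefSeq symbol (GRCm38.p6) and 2749 an older symbol. Array 2 was turned by its dyes. The mean ratio of each gene was set against 0 by lmFit and eBayes of limma 3.58.1 (R 4.3.3), which left 1 residual degree of freedom. P-values were adjusted over all gene rows by Benjamini-Hochberg, with a threshold of 0.05. With 2 arrays, the smallest two-sided p that exchanging signs allows is 0.5. The procedure was tested on simulated data. The labels call the pools biological replicates, and precision is limited by having 2 arrays. Genes named from a list were drawn from the 3 with the largest mean among those of the same sign on both arrays, and from those past 1.5-fold on both. Not every gene taken by this rule is named, least of all in the marker lists of other cells. Other genes were named after their values were seen. The 10 genes, the lists, the orientation and the tests were chosen with earlier results of these data known. A gene that this rule takes is not reported here.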

Additional observations from a re-analysis of the deposited data

Results flagged for a closer look

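Agilent's E1A spike-in RNAs are not part of the comparison of genotypes and served only to set the orientation of array 2. Their ratios had a mean log2 size of 1.58, while the negative control had one of 0.0675.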

How the results depend on the processing

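With array 2 not turned, the means that changed sign were those of Gh (0.54), Ghsr (0.17), Pou1f1 (0.20), Neurod4 (-0.021) and Sstr2 (-0.15), by the construction of that reading, while the other 5 kept theirs. None of the 10 genes changed sign or passed limma's adjusted threshold with centring, scaling, robust moderation or the ordinary statistic. Past 1.5-fold with a shared sign on both arrays were 258 genes. The count was 1008 with array 2 not turned, 146 over protein-coding rows, 1696 at 1.2-fold, 36 at 2-fold and 2921 to 4393 on single arrays. It was 264 with centring and 327 with scaling, and in both Ghsr was no longer past 1.5-fold on array 1. The count of genes past the adjusted threshold, 0, became 703 at an unadjusted p and 2 (Ccdc107 and Kri1, with identical ratios on both arrays) with the ordinary statistic. Of the 10 genes, 5 had the same sign on both arrays, against 41.1% of all gene rows. The count was 6 after centring, which moved Ghrhr out and Dlk1 and Sstr5 in. It was 2 (Ghsr and Pappa2) where both sizes had to exceed 0.2. The share of all gene rows was not counted after centring or at that size, so these counts have no background. The median of the 10 ranged from -0.048 to 0.014 without replicate 2 or replicate 1. The comparison is already paired within arrays, since each array sets a Brdt-/- pool against a wild-type pool. A further replicate block would leave no residual degrees of freedom. No intensities were used here, so dim genes could not be marked.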

Other observations

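Other members sat in sparser parts of the array than Rxrg. Only 1 other row lay within a distance of 0.02 of the pair of ratios of Ghsr, 7 lay that near to Gh and 7 to Pappa2. Near Ghrhr and Dlk1 lay 93 rows each, against 106 and 83 at the positions with both signs exchanged. None of the rows near Gh, Ghrhr, Ghsr, Pappa2 and Sstr2 (20 rows) was an olfactory receptor gene. Near Pou1f1 it was 1 of 6 rows (16.7%), and near Neurod4 1 of 46 (2.17%). The olfactory receptor rows near Dlk1 and Sstr5 were 2 each, of 93 (2.15%) and of 60 (3.33%). Over all rows the share was 3.47%, and most of these neighbourhoods are too small to set a share against it.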
